A study of Mus musculus with 6 samples.

Results

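The genes described here are 28 listed genes of cholesterol and fatty acid synthesis, chosen by symbol from the 21966 genes of an RNA-seq table of mouse colon tumor cells. All 28 were found in the table. They comprise 17 enzymes of the cholesterol pathway, 5 genes that sense or carry sterols or control their synthesis, and 6 genes of fatty acid synthesis. The study expressed PID, a peptide that inhibits the Group I p21-activated kinases (Paks), in colon tumors that lack Apc function, and sequenced RNA of primary tumor cells with and without it. PID+ cells came from mice with CDX2P-NLS-Cre, the Apc deletion APC^Δ/+ and the allele ROSA26-PID, numbered 4, 7 and 26. PID- cells came from mice with CDX2P-NLS-Cre and APC^Δ/+, which the labels number 1, 2 and 3 and call normal and untreated, although they too carry Cre and the Apc deletion. The labels' numbers for PID- mice are not those the study gives its PID- lines.

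In both genotypes Cre was driven by the CDX2P promoter, which is active in the intestinal epithelium. In PID+ mice it also switched on the PID allele at the Rosa26 locus. The lines, 3 per genotype, were set up from adenomas of mice examined at 8 months of age and grown in medium with 10% fetal bovine serum, which itself contains lipids. Since the table has no row for the PID transgene, the labels could not be checked on it. According to the methods, the 3 sets of reads of a condition were merged before quantification. The table therefore holds 1 pooled FPKM (fragments scaled by transcript length and by the size of the library) per gene and condition, with a confidence interval from CuffDiff, and no value per mouse. No difference given here could be checked against replicates, and no p-value was calculated. As to the labels, the paper reports by PCR less Vimentin and more E-Cadherin in PID+ cells. In the table Vim had an FPKM of 19.1 in PID+ against 997 in PID- cells. Cdh1, the E-Cadherin gene, had 192 against 88.0, so both ran the way the labels say.

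Cells make cholesterol from acetyl-CoA through mevalonate, isoprenoid phosphates, squalene and lanosterol, and they make fatty acids from acetyl-CoA through malonyl-CoA. Both pathways are under the control of the sterol regulatory element-binding proteins (SREBPs), transcription factors that are made as membrane proteins of the endoplasmic reticulum. When sterols are scarce, the escort protein Scap carries them to the Golgi, where proteases release the active factor, and when sterols are plentiful, Insig proteins hold Scap back. Intestinal epithelial cells both absorb cholesterol and make it.

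Each of the 28 genes had a higher FPKM in PID+ than in PID- cells under the deposited scaling, whereas with the FPKM of Gapdh set equal 17 were higher and 11 were not. Among all 11480 tested genes, those with an accepted status in both conditions and a mean FPKM of at least 1, 49.4% were higher in PID+ cells as deposited and 15.03% with Gapdh set equal. All 28 genes met these conditions. On the scale of log2((PID+ FPKM + 1)/(PID- FPKM + 1)), on which changes at low FPKM come out too small, 17 of the 28 were at least 1.5-fold higher, against 14.2% of all tested genes. None was at least 1.5-fold lower, against 15.3% of all tested genes. At least 2-fold higher were 6 of the 28, against 6% of tested genes. The median log2 change was 0.71 for the 28 genes and -0.01 for all tested genes. Summed over the 28 genes, FPKM was 2077 in PID+ against 1323 in PID- cells, a ratio of 1.57, while the sum over all tested genes had a ratio of 1.07. Ranked among all tested genes by log2 change, 13 of the 28 lay in the upper 10%, 21 in the upper 25% and 28 in the upper 50%.

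**Figure D1:**
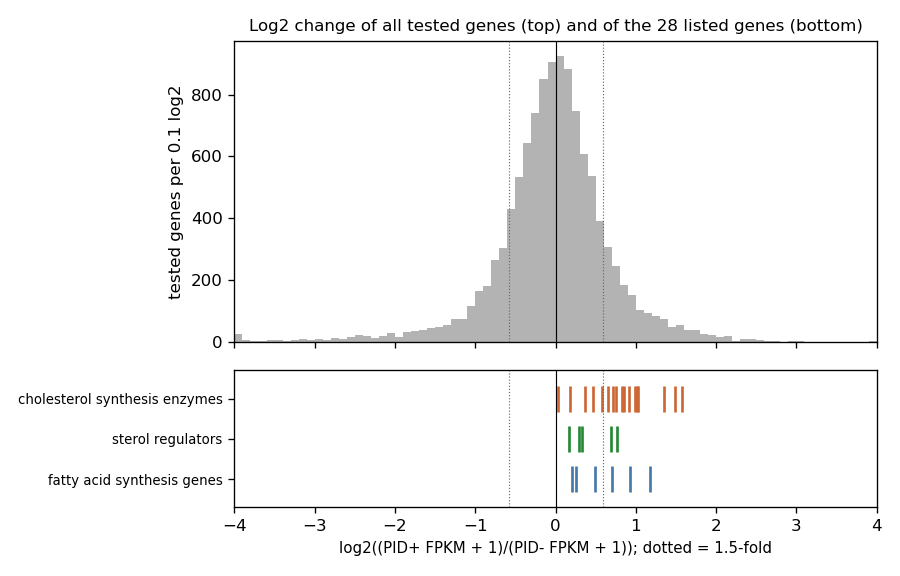
Histogram of the log2 change, PID+ against PID- cells, of 11480 tested genes (top; y axis, genes per bin, the end bins also holding genes beyond them) and the log2 change of each of the 28 listed genes as a tick (bottom), with dotted lines at 1.5-fold. The ticks lie between 0.03 and 1.57 under the deposited scaling; with Gapdh set equal, 11 of them are at or below 0.

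The deposited intervals were wide, and in none of the 28 genes were they apart. Among all tested genes the intervals were apart for 0.348% with higher and 1.03% with lower values in PID+ cells, so few genes of the whole table met this rule. In 9 of the 28 genes (Idi1, Fdps, Sqle, Lss, Msmo1, Hsd17b7, Srebf2, Scd1 and Elovl6) the PID+ FPKM lay above the upper bound in PID- cells, which is 32.1%, against 8.08% of all tested genes. With Gapdh set equal this held for Idi1 of the 28, against 2.79% of all tested genes. As deposited, the FPKM of Idi1 in PID- cells also lay below the lower bound in PID+ cells (1.34% of all tested genes). This held for none of the 28 with equal totals (1.10% of all tested genes) or with Gapdh set equal (0.523%). In 19 genes (67.9%) each FPKM lay inside the interval of the other condition, as in 82.99% of all tested genes, and with Gapdh set equal in 27 (96.4%), against 66.5%. The upper half-width of the interval had a median of 69.8% of the FPKM in PID+ and 78.0% in PID- cells. The estimated number of reads behind these values was large, which bears on counting error only. Low FPKM of genes with 1 transcript fell on steps of 1 read, and from these steps the 28 genes were estimated to rest on 2794 to 316977 reads per condition.

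The mevalonate branch opens with Hmgcs1, the cytosolic HMG-CoA synthase, which condenses acetyl-CoA with acetoacetyl-CoA. Its FPKM was 78.5 in PID+ cells (interval 35.3 to 122) and 69.3 in PID- cells (31.2 to 107). This log2 change of 0.18 was among the smaller ones of the pathway. Mvk, mevalonate kinase, had an FPKM of 31.3 in PID+ (8.55 to 54.0) and 18.6 in PID- cells (2.84 to 34.4), a log2 change of 0.72. Pmvk, which adds the next phosphate, had 26.7 (6.07 to 47.3) and 14.7 (0.603 to 28.7), a log2 change of 0.82. As deposited both kinases were thus higher in PID+ cells by more than 1.5-fold, unlike the synthase before them, but with Gapdh set equal they were at 0.12 and 0.23. Mvd, which decarboxylates mevalonate diphosphate to isopentenyl diphosphate, had an FPKM of 25.4 in PID+ against 19.5 in PID- cells. Its intervals, 0 to 199 and 0 to 217, were too wide to place it.

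Idi1 (ENSMUSG00000058258.11, chr13:8885501-8892451 on the plus strand of GRCm38) interconverts isopentenyl and dimethylallyl diphosphate, the building blocks of all isoprenoids. Its FPKM was 91.3 in PID+ cells (33.5 to 149) and 32.0 in PID- cells (11.2 to 52.8). The log2 change of 1.49 was exceeded by 285 of the 11480 tested genes and, among the 28, by Lss. Fdps, which joins these units to farnesyl diphosphate, the branch point to sterols and to protein prenylation, was the most abundant of the 17 cholesterol enzymes in both conditions. Its FPKM was 179 in PID+ (74.7 to 283) and 94.7 in PID- cells (35.7 to 154), a log2 change of 0.91. Over the 6 enzymes from Hmgcs1 to Fdps, 4 were at least 1.5-fold higher, against 14.2% of all tested genes, and the median log2 change was 0.77. With Gapdh set equal Idi1 (0.87) alone of them was, against 4.70% of all tested genes, and the median was 0.17.

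Farnesyl diphosphate is committed to sterols by Fdft1, squalene synthase, whose FPKM was 47.1 in PID+ (0 to 99.5) and 25.6 in PID- cells (0 to 74.5), a log2 change of 0.85. Sqle, the squalene epoxidase and a rate-limiting step of the pathway, had an FPKM of 109.6 in PID+ (48.3 to 171) and 54.9 in PID- cells (23.0 to 86.8), a log2 change of 0.98. Lss (ENSMUSG00000033105.9, chr10:76531588-76557138 on the plus strand) closes the epoxide to lanosterol, the first sterol. It had the largest log2 change of the 28 genes, 1.57, with an FPKM of 74.8 in PID+ against 24.5 in PID- cells. Its intervals, 0 to 176 and 0 to 56.8, reached down to 0 in both conditions, so the largest change was not the one with the tightest bounds.

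Lanosterol is demethylated by Cyp51, Msmo1 and Nsdhl. Cyp51 (ENSMUSG00000001467.5, chr5:4081145-4104746 on the minus strand), a cytochrome P450, had an FPKM of 123 in PID+ (6.45 to 240.2) and 60.3 in PID- cells (0 to 126), a log2 change of 1.02. Msmo1 (ENSMUSG00000031604.7, chr8:64718139-64733792 on the minus strand), the sterol C4 methyl oxidase, had 164 (72.0 to 256) and 80.3 (33.5 to 127), also a log2 change of 1.02. Nsdhl, the dehydrogenase that acts with Msmo1, had 36.6 (14.2 to 59.0) and 26.2 (9.37 to 43.0), a log2 change of 0.47. As deposited Nsdhl stayed under 1.5-fold, but relative to the median of genes within 5 Mb it was at 0.99 and Msmo1 at 0.85. Hsd17b7 (ENSMUSG00000026675.9, chr1:169949535-169969241 on the minus strand), the ketoreductase of the same demethylation, had the lowest FPKM of the cholesterol enzymes in both conditions. It had 21.3 in PID+ (6.11 to 36.4) and 7.74 in PID- cells (1.25 to 14.2), a log2 change of 1.35, the third largest of the 28 genes.

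The remaining steps reduce and shift double bonds. Tm7sf2, a sterol C14 reductase, had an FPKM of 24.7 in PID+ (0 to 53.5) and 15.3 in PID- cells (0 to 35.8), a log2 change of 0.66. Ebp, the sterol isomerase that moves a double bond in the ring, had 59.8 (17.4 to 102) and 58.7 (16.4 to 101). At a log2 change of 0.03 it was the gene of the 28 with the smallest difference, and it was lower in PID+ cells (-0.07) with total FPKM set equal and with Gapdh set equal (-0.58). Sc5d, the desaturase that follows, had 56.8 (23.3 to 90.3) and 37.6 (13.3 to 61.9), a plain ratio of 1.51. With the pseudocount of 1 its log2 change of 0.58 fell just short of 1.5-fold. It passed with a pseudocount of 0.1, with equal upper quartiles and with the median of all tested genes subtracted. With equal totals (0.48) or Gapdh set equal (-0.03) it did not pass. Dhcr7, the reductase that makes cholesterol from its immediate precursor, had 32.7 (8.82 to 56.6) and 19.0 (3.52 to 34.4), a log2 change of 0.76 that was 0.52 with the median of its chromosome subtracted. Of the 11 enzymes from Fdft1 on, 8 were at least 1.5-fold higher (14.2% of all tested genes), with a median log2 change of 0.85, and with Gapdh set equal 2 were, Lss (0.96) and Hsd17b7 (0.76), with a median of 0.24. As deposited, the part of the pathway after farnesyl diphosphate and the part before it had like medians. Over all 17 cholesterol enzymes, 12 (70.6%) were at least 1.5-fold higher, against 14.2% of all tested genes, and with Gapdh set equal 3 (17.6%), against 4.70%. Their median was 0.82, and 0.23 with Gapdh set equal.

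**Figure D2:**
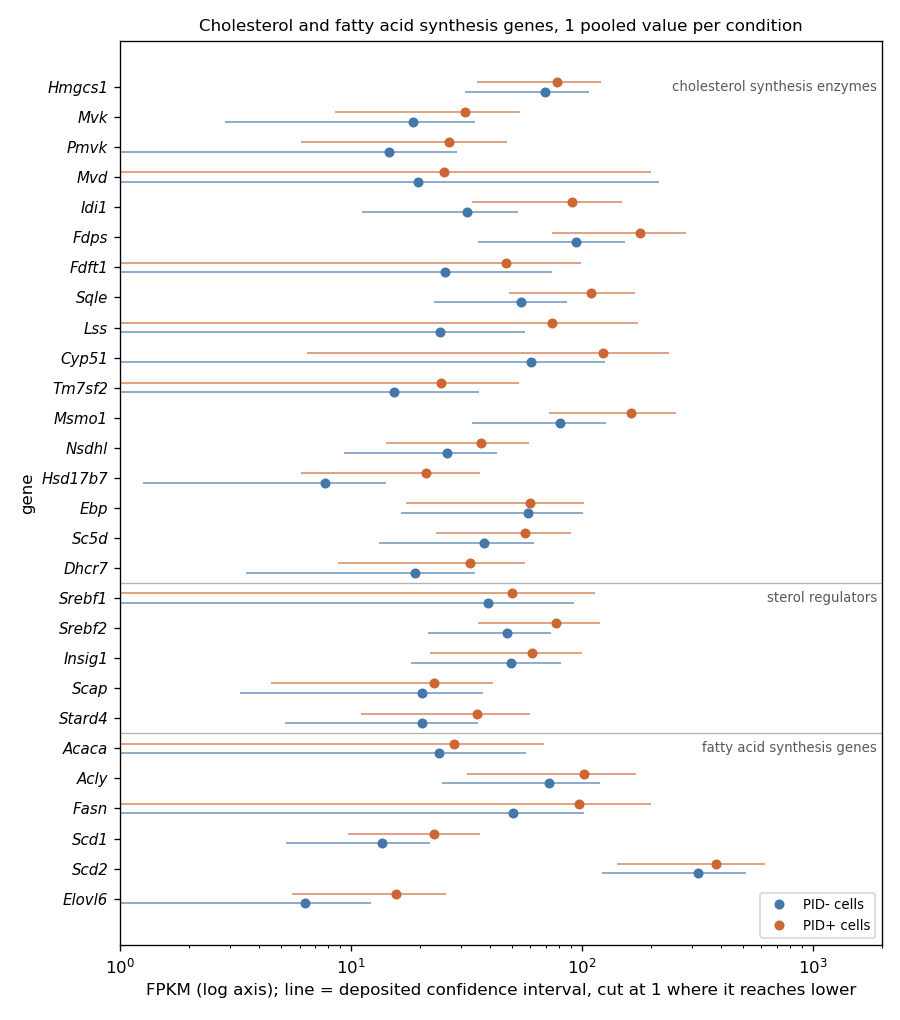
FPKM (log axis) of the 28 genes in PID+ and PID- cells, 1 pooled value per condition, with the deposited confidence interval as a line that is cut at 1 where it reaches lower. Every PID+ point lies to the right of its PID- point under the deposited scaling (11 would not with Gapdh set equal), and the lines of the conditions overlap in all 28 genes.

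The genes that control the pathway had a smaller median difference than its enzymes. Srebf2, which encodes the SREBP best known for cholesterol genes, had an FPKM of 77.6 in PID+ (35.7 to 119.5) and 47.7 in PID- cells (21.6 to 73.9), a log2 change of 0.69. Srebf1, whose products act more on fatty acid genes, had 50.0 (0 to 115) and 39.4 (0 to 93.0), a log2 change of 0.34. Scap, the escort of both, had 22.9 (4.50 to 41.4) and 20.4 (3.32 to 37.4), a log2 change of 0.16. Of these, Srebf2 passed 1.5-fold as deposited, but not with the median of its chromosome (0.50) or of genes within 5 Mb (0.48) subtracted or with Gapdh set equal (0.07), and Srebf1 and Scap did not pass. Insig1, which retains Scap and is itself a known SREBP target, had 61.1 (22.0 to 100.3) and 49.6 (18.2 to 81.1), a log2 change of 0.30. Stard4, a carrier that moves cholesterol between membranes, had 35.3 (11.0 to 59.6) and 20.4 (5.17 to 35.6), a log2 change of 0.76. Of the 5 genes 2 (40%), Srebf2 and Stard4, were at least 1.5-fold higher as deposited, against 14.2% of all tested genes. With Gapdh set equal none was, against 4.70%, and Stard4 was at 0.16. The median of the 5 genes was 0.34, and it was -0.27 with Gapdh set equal, where Srebf1, Insig1 and Scap were lower in PID+ cells.

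In fatty acid synthesis the synthase, the elongase and a desaturase passed 1.5-fold as deposited. With Gapdh set equal the elongase Elovl6 did (0.60), while Fasn was at 0.31 and Scd1 at 0.11. Acly, which makes cytosolic acetyl-CoA from citrate, had an FPKM of 102 in PID+ (31.9 to 172) and 72.4 in PID- cells (24.8 to 119.98), a log2 change of 0.49. Acaca, the carboxylase that makes malonyl-CoA, had 27.95 (0 to 68.9) and 24.1 (0 to 57.6), a log2 change of 0.21. Fasn, the synthase that builds palmitate, had 97.4 (0 to 200.1) and 50.6 (0 to 102), a log2 change of 0.93. The enzymes that supply the synthase with substrates thus stayed under 1.5-fold. Elovl6 (ENSMUSG00000041220.7, chr3:129532355-129638495 on the plus strand), which elongates palmitate to stearate, had the lowest FPKM of the 28 genes in both conditions, 15.7 in PID+ (5.57 to 25.8) and 6.35 in PID- cells (0.435 to 12.3). Its log2 change of 1.18 was the largest of the fatty acid genes.

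The stearoyl-CoA desaturases, which place the double bond of oleate, were present as a minor and a major form. Scd2 had the highest FPKM of the 28 genes, 382 in PID+ (143 to 620.5) and 319.7 in PID- cells (123 to 516), a log2 change of 0.25. Scd1 had 22.9 (9.70 to 36.2) and 13.7 (5.24 to 22.1), a log2 change of 0.71. The minor form passed 1.5-fold as deposited and the major form did not. With the median of genes within 5 Mb subtracted Scd1 was just below this cut, at 0.5842 against 0.585. The transcripts of these neighbours on chromosome 19 share 145 stretches of 50 bases, the read length, which is 3.03% of those of Scd1 and 2.68% of those of Scd2, so most reads can be told apart. The further copies Scd3 and Scd4 had an FPKM below 1 in both conditions. Over the 6 fatty acid genes, 3 were at least 1.5-fold higher, against 14.2% of all tested genes, and the median was 0.60. With Gapdh set equal 1 was, against 4.70%, and the median became -0.01.

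Scaling affected all these values alike. Gapdh itself was higher in PID+ cells by a ratio of 1.54, and setting it equal moved the median log2 change of all tested genes to -0.57. Under that scaling 4 of the 28 genes, Idi1, Lss, Hsd17b7 and Elovl6, were at least 1.5-fold higher (4.70% of all tested genes) and none was lower by that much (48.5% of all tested genes), and the median of the 28 was 0.11. On the log2 scale with the pseudocount of 1, Ebp, at -0.5842, was just short of this cut, which is 0.585 in size. As a plain ratio, without a pseudocount, Ebp was past it under that scaling. Relative to the median of all tested genes, the 28 genes were higher by 0.72 as deposited and by 0.68 with Gapdh set equal. Equal totals moved the median of all genes to -0.10, and Ebp was then the gene of the 28 that was lower in PID+ cells.

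The 28 genes lie on 14 chromosomes. Medians of whole chromosomes differed between the conditions in this table, so each gene was also compared with its surroundings. All 28 had a log2 change above the median of the tested genes on their own chromosome. Nsdhl and Ebp lie on the X chromosome, whose 347 tested genes had a median of -0.45, and relative to it their log2 changes were 0.91 and 0.47. Idi1 and Hmgcs1 lie on chromosome 13, with a median of -0.19, and relative to it they were at 1.67 and 0.36. On chromosomes 7 and 14, with medians of 0.24 and 0.23, Dhcr7 and Fdft1 were at 0.52 and 0.62 relative to their chromosome. The 28 were also above the median of the other tested genes within 5 Mb (20 to 172 genes), a comparison chosen after seeing the data. There Idi1 stood out most, at 2.19 above a local median of -0.71, and Scap least, at 0.09. The median of the 17 cholesterol enzymes was 0.70 with the chromosome's median subtracted.

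Some of the 28 share sequence or exons with other genes, and their values are less certain. Fdps shares 86.4% of the 50-base stretches of its longest coding transcript with other annotated transcripts, most of them with Gm43738, which spans it and had an FPKM of 0.0214 in PID+ against 0.0190 in PID- cells. Acaca shares 52.6%, mostly with Gm5182. Fdft1 shares 30.7%, mostly with Ctsb, whose FPKM was 86.8 in PID+ against 97.1 in PID- cells, the opposite order to Fdft1. Idi1 shares 30.5%, none of it with coding transcripts. Exons of Cyp51 overlap those of Akap9, exons of Tm7sf2 those of Vps51 and exons of Srebf1 those of Rai1. Hmgcs1 shares 13.6% and Scap 13.1%, also none of it with coding transcripts. Lss shares 4.35%, and Sqle, Msmo1 and Hsd17b7 share none.

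Promoters were compared with RefSeq windows of GRCm38.p6, which run from 250 bases before to 50 bases after a transcription start. They held 28 windows for 22 of the 28 genes; Fdps, Fdft1, Sqle, Scd1, Scd2 and Stard4 had none. Motifs were searched on both strands. The CCAAT box (CCAAT), the site of NF-Y, which is known to act together with SREBPs, was present in 71.4% of the windows, against 37.8% of the windows of all tested genes and 37.4% of all 32851 windows. By gene, 19 of 22 had it, against 43.3% of 9027 tested genes with a window; Elovl6, Scap and Acaca did not. The Sp1 box (GGGCGG) was present in 75% of the windows, against 63.9% for tested genes, and the E-box (CACGTG) in 21.4%, against 9.95%. The sterol regulatory element in the form TCACNCCAC was found in 1 window, that of Hmgcs1, which is 3.57% of the windows, against 1.11% for tested genes and 1.24% for all. It overlaps none of the other motifs searched there. These matches describe letters in the windows, and binding was not measured.

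The stretch of the Hmgcs1 promoter around this element is shown because it holds both kinds of match. It is chr13:119690164-119690272 on the plus strand, with the element and an inverted CCAAT box in capitals.
Hmgcs1: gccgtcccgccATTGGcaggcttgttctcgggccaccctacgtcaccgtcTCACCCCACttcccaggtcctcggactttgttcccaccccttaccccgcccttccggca

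The 250 bases before the RefSeq start are shown for Lss, Idi1 and Hsd17b7, the genes with the largest log2 changes of the 28. They are chr10:76531355-76531604 (plus strand), chr13:8885356-8885605 (plus strand) and chr1:169969206-169969455 (minus strand), read 5′ to 3′ toward the gene, with CCAAT boxes of either strand in capitals.
Lss: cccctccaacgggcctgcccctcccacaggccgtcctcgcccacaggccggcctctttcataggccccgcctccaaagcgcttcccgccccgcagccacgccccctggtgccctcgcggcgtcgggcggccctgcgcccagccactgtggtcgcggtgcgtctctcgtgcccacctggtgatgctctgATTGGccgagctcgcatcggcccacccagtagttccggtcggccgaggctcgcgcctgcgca
Idi1: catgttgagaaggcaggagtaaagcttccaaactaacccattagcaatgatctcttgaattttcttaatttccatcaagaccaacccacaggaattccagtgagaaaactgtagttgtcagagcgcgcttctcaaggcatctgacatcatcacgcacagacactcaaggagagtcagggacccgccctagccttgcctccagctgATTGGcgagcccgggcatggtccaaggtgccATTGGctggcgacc
Hsd17b7: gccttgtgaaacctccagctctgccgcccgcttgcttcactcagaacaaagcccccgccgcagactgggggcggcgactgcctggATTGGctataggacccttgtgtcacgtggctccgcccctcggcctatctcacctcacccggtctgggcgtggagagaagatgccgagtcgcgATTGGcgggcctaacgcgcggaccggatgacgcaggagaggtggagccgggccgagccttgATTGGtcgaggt
The boxes number 1 in Lss, 2 in Idi1 and 3 in Hsd17b7, and all 6 read ATTGG, the inverted form. Gencode M21, whose gene positions are given above, starts these genes further upstream than RefSeq, so that the last 17, 105 and 36 bases lie inside its genes, with both boxes of Idi1 and 1 of Hsd17b7.

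Further lists are read against the shares of all tested genes at least 1.5-fold higher and lower. These were 14.2% and 15.3% as deposited, 11.5% and 18.8% with equal totals, 15.1% and 14.7% with equal upper quartiles, and 4.70% and 48.5% with Gapdh set equal.

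Other genes of sterol and isoprenoid synthesis, listed separately, had values in both directions. Of 13 genes 11 were tested, and 3 (27.3%) were at least 1.5-fold higher and 2 (18.2%) at least 1.5-fold lower, against 2 and 2 with equal totals and 1 and 5 with Gapdh set equal. Their median log2 change was -0.05, and -0.55 with Gapdh set equal. Por, the reductase that supplies electrons to Cyp51 and Sqle, was the most abundant, with an FPKM of 484 in PID+ against 191 in PID- cells, a log2 change of 1.33. Lbr, a sterol C14 reductase like Tm7sf2 and also the lamin B receptor, had 57.5 and 28.4, a log2 change of 0.99. Pdss1, of ubiquinone synthesis and named after its values were seen, was at 0.67. Cyb5r3, a cytochrome b5 reductase, was lower in PID+ cells, with 92.4 against 187, a log2 change of -1.01. Dhdds, which makes dolichol, was lower as well, at -0.67. Nus1, the partner of Dhdds, was at -0.16 and was named after its values were seen.

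Genes of SREBP processing and sterol sensing had a median near that of all tested genes. Of 14 genes 11 were tested, 1 was at least 1.5-fold higher and none was at least 1.5-fold lower (none and 5 with Gapdh set equal), and the median was -0.0094 (0.01 with equal upper quartiles and -0.57 with Gapdh set equal). The higher one was Nfya, a subunit of NF-Y, with an FPKM of 30.3 in PID+ against 18.5 in PID- cells, a log2 change of 0.68 that is below 1.5-fold with equal totals. Mbtps1, a Golgi protease that cleaves SREBPs, was the most abundant, with 42.7 and 57.2.

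Of 24 genes of sterol transport, storage and efflux 14 were tested, with 3 (21.4%) at least 1.5-fold higher and 2 (14.3%) at least 1.5-fold lower (2 and 7 with Gapdh set equal, 3 and 1 with equal upper quartiles). Their median was 0.03, which was -0.07 with equal totals and -0.56 with Gapdh set equal. Stard5, a sterol carrier related to Stard4, had an FPKM of 13.9 in PID+ against 3.39 in PID- cells, a log2 change of 1.77. Cyp27a1, a sterol 27-hydroxylase, had 1.999 and 0.209 and passed the filter on mean FPKM through its PID+ value alone; among the 12 whose FPKM reached 1 in both conditions, 2 were higher and 2 lower. The third, Lrp8, a lipoprotein receptor named after its values were seen, was at 0.72. Vldlr, a related receptor, went the other way, with 9.80 in PID+ against 34.1 in PID- cells (log2 change -1.70), and Npc2, which hands over cholesterol in lysosomes, was at -0.59. Soat1, which esterifies cholesterol, was the most abundant of the list, with 54.4 and 57.8.

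Other genes of fatty acid synthesis and desaturation had more lower than higher values as deposited. Of 27 listed 19 were tested, 1 (5.26%) was at least 1.5-fold higher and 6 (31.6%) were at least 1.5-fold lower. These counts were 3 and 6 with equal upper quartiles, 1 and 8 (42.1%) with equal totals and 1 and 12 (63.2%) with Gapdh set equal, with a deposited median of -0.26 (-0.87 with Gapdh set equal). Me1, the malic enzyme that supplies NADPH, had an FPKM of 37.9 in PID+ (14.4 to 61.3) and 143 in PID- cells (59.0 to 227), a log2 change of -1.89, and its intervals met only at their ends. Fads3, of the fatty acid desaturase family, had 14.3 and 49.7, a log2 change of -1.73, and Mid1ip1, which promotes the polymerization of the Acaca protein, had 54.7 and 104, a log2 change of -0.91. Hacd4, a dehydratase family member, was higher, with 4.43 and 1.09, a log2 change of 1.37. Tecr, which completes each round of elongation, had the highest mean FPKM of the list, with 129 and 140.2. Higher Fasn and Elovl6 in PID+ cells thus stood beside lower Me1 and Mid1ip1.

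Markers of cell types were read beside these results, since in bulk RNA fewer cells of a type and less RNA per cell cannot be told apart. All 6 epithelial markers were higher in PID+ cells as deposited, against 49.4% of all tested genes. With Gapdh set equal not all of them were, Krt19 being lower, and 15.03% of all tested genes were higher. The deposited FPKM of the 6 markers summed to 8924 in PID+ against 4883 in PID- cells. Krt19, the most abundant in PID- cells, had 2469 and 2073. Of 8 fibroblast markers 7 were lower in PID+ cells, against 50.6% of all tested genes. But 4 of the 8 were below 1 in both conditions: Pdgfra, Pdgfrb, Thy1 and Lum, the last at 0 in both. The 8 markers summed to 3.005 in PID+ against 34.1 in PID- cells. Col1a2 was the most abundant of them in PID- cells at 11.9, against 0.0654 in PID+ cells. Vim, a mesenchymal filament gene outside this list and chosen with its values known, had 19.1 in PID+ against 997 in PID- cells, a log2 change of -5.63. As deposited, the epithelial set moved in the same direction as the 28 genes and the fibroblast set, like Vim, in the opposite one. Their part in the result was not tested. Adipocyte markers were near 0 (Adipoq, Plin1 and Cidec below 1 in both conditions) apart from Fabp4, with 8.90 and 1.63, and the list summed to 9.004 and 1.69. Of 6 immune markers 5 were below 1 in both conditions, Cd3e being at 0 in both, and Cd68 had 21.8 in PID+ against 16.8 in PID- cells, of sums of 22.1 and 17.1. Acta2 of smooth muscle had 4.39 and 9.76, its list summing to 4.56 and 9.83. The 3 endothelial markers summed to 3.64 and 1.11, mostly from Kdr, and the hepatocyte markers, with Ttr and Serpina1a at 0 in both conditions, to 0 and 0.00571. Fabp4 and Kdr moved in the same direction as the 28 genes and Acta2 in the opposite one, and their part was not tested either.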

How the data were processed

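RNA of 3 PID+ and 3 PID- primary tumor cell lines was poly(A) selected and sequenced, in reads of 50 bases. After trimming with cutadapt and alignment to GRCm38.p3 with TopHat, the authors pooled the reads of each condition and ran CuffDiff. Its FPKM and interval bounds were deposited as 43932 rows. The labels name 3 mice per condition, while the methods speak of replicated sequencing runs. Depth per sample is not given by the table. From the deposited FPKM, log2 changes were calculated here with a pseudocount of 1, and called means at least 1.5-fold. Tested genes had a status of OK in both conditions (7 genes did not) and a mean FPKM of at least 1. No per-sample column exists, and the deposited standard deviation was not used.

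Symbols matched 21734 of 21966 identifiers; Faxdc2 and Spring1 of the other lists were not found by symbol, and 2 other listed genes are not reported here and enter no list's counts. The members and lists were chosen with earlier results of these data known. Named genes were all 28 members and, in each other list, the genes at least 1.5-fold changed (at most 4, by size, alternating between higher and lower) and the most abundant one. Positions, lengths and transcripts came from Gencode M21 (GRCm38), promoters from RefSeq (GRCm38.p6). A comparison of the Scd1 and Scd2 proteins had been planned; transcripts were used instead. The value of 1 read was found from genes with 1 transcript as the step that left the most values whole, after taking 180 bases off the transcript length (1 of 31 corrections tried). Within 0.1 of a whole number were 91.5% of 603 values in PID+ and 91.4% of 548 in PID- cells, against 20% without steps. The FPKM of 1 read differed between the conditions by a ratio of 1.39 (PID+ to PID-), through depth and scaling together. Read numbers of genes with several transcripts use the longest and are approximate. All read numbers depend on the step found here and were not reconciled with the depth in the labels. Calculations were tested on simulated data. Python 3.11.15, numpy 2.4.6, pandas 2.3.3 and matplotlib 3.10.9 were used.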

Additional observations from a re-analysis of the deposited data

How the results depend on the processing

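Alternatives were a pseudocount of 0.1, scaling to equal totals, upper quartiles or Gapdh, subtraction of the median of all genes, of the own chromosome or (chosen after seeing the data) of genes within 5 Mb, no filter or a mean FPKM of at least 5, and other calls. No gene of the 28 was at least 1.5-fold lower under any of them, but Ebp with Gapdh set equal (-0.5842) was just short of it. That scaling was not combined with the pseudocount of 0.1. It multiplied PID+ values by 0.648, and with a deposited ratio of 1.02 Ebp was past the cut as a plain ratio, without a pseudocount. The number at least 1.5-fold higher, 17 as reported, was 16 to 18 except with Gapdh set equal (4), at 2-fold (6), at 3-fold (0) and with intervals apart (0), which follows from the stricter calls in the last 3. With the chromosome's median subtracted Dhcr7 and Srebf2 lost the call and Nsdhl and Sc5d gained it; within 5 Mb Dhcr7, Srebf2 and Scd1 lost it and Mvd, Nsdhl and Sc5d gained it. Tm7sf2 lost it with equal totals. With Gapdh set equal, 17 genes in place of 28 were higher at all, against 15.03% of all tested genes, and median log2 changes were 0.11 for the 28 genes, 0.23 for cholesterol enzymes, -0.27 for regulators and -0.0079 for fatty acid genes, the last 2 with the opposite sign. This scaling lowers all genes by construction. Equal totals gave 0.23 for regulators and 0.50 for fatty acid genes. The median of cholesterol enzymes was 0.70 with the chromosome's median and 0.69 with the median within 5 Mb subtracted; the cause was not tested. Other medians differed by at most 0.1 from those reported. No paired analysis was possible because the table holds 1 pooled value per condition, and leaving out a replicate was not possible for the same reason. The estimated read numbers of the 28 genes were large, but they are approximate and bear on counting error only. The spread between mice is unknown for every value.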

Other observations

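Genes that use fatty acids were looked up beside those that make them. Of 21 genes of fatty acid activation and glycerolipid synthesis 20 were tested, with 5 (25%) at least 1.5-fold higher and 2 (10%) at least 1.5-fold lower, against 14.2% and 15.3% of all tested genes. With Gapdh set equal these were 2 (10%) and 6 (30%), against 4.70% and 48.5%. The list had a median log2 change of 0.21 (-0.35 with Gapdh set equal). Dgat2, which completes triglyceride synthesis, had an FPKM of 10.1 in PID+ against 3.36 in PID- cells, a log2 change of 1.35. Lpin3, a phosphatidate phosphatase, had 9.82 and 3.36, a log2 change of 1.31. Named after their values were seen, the others that were higher were Acsl3 (0.92), Agpat2 (0.71) and Acsl5 (0.63). Agpat4, an acyltransferase of phosphatidate synthesis, had 1.70 in PID+ (0 to 4.08) and 21.05 in PID- cells (5.85 to 36.3), a log2 change of -3.03. It was the gene of this list whose intervals were apart. Acsl1, an acyl-CoA synthetase, had 2.75 in PID+ against 6.49 in PID- cells, and Plin2, a lipid droplet protein and the most abundant of the list, had 143 and 116.

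Of 17 genes of fatty acid oxidation 14 were tested. None was at least 1.5-fold higher and 2 were at least 1.5-fold lower, which is 14.3%, against 15.3% of all tested genes. With equal totals 5 were (35.7%, against 18.8% of all tested genes), and with Gapdh set equal 11 (78.6%, against 48.5%). As deposited, 11 (78.6%) were lower at all, against 50.6% of all tested genes, and the median log2 change was -0.35 (-0.94 with Gapdh set equal). Acaa1a and Acaa2, the thiolases of peroxisomes and mitochondria, had log2 changes of -0.73 and -0.62. Acadl, a dehydrogenase and the most abundant of the list, had an FPKM of 94.3 in PID+ against 86.8 in PID- cells, a log2 change of 0.12.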
